A study of Mus musculus with 17 samples.

Results

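Bone marrow hematopoietic stem and progenitor cells (HSPC) from mice given lipopolysaccharide (LPS) 72 h earlier were compared with the same sorted population from mice given phosphate-buffered saline (PBS). The comparison holds 8 of the 17 libraries of the series, 3 with LPS at 72 h and 5 with PBS, chosen by their titles. All mice were wild-type C57BL/6J, injected intraperitoneally, and the PBS libraries are titled day 0. The LPS dose is given as 5 ug in the series' design text and as 5 mg in the protocol of the sample labels, and neither was assumed to be right. The other libraries are from mice sampled 24 h after LPS (3) and from mice that also received an antibody against the interleukin-10 receptor. Those libraries share in the estimate of spread, and the 24 h libraries give the acute levels set beside those at 72 h. The sources used here give no age, sex, litter or pooling, and do not say that each library is a separate mouse, so p-values measure the spread between these libraries only. The PBS libraries are named in another style than those at 72 h, and a batch that such names might mark cannot be told apart from the treatment.

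LPS, a component of the outer membrane of Gram-negative bacteria, is sensed by Toll-like receptor 4 (TLR4) and sets off inflammatory cytokine and interferon signalling. Blood-forming progenitors answer such a signal by leaving rest, making more myeloid cells and shifting resources to growth, a response known as emergency myelopoiesis. The acute response subsides within days. The comparison at 72 h asks what still differs from baseline afterwards.

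Total counts ran from 10990583 to 13117119 per library at 72 h and from 11879018 to 15597602 with PBS, and 17314 to 17702 against 18103 to 18778 genes had at least 1 count. Of 35321 genes in the table, 14920 passed the filter on low counts and were tested. HSPC identity was checked on 10 defining markers, which summed to 1812 to 2356 CPM (counts scaled to a common library size) at 72 h and to 1709 to 2472 CPM with PBS. Kit, the stem cell factor receptor, lay at 334 ± 34.4 CPM (SD, n = 3) against 399 ± 60.8 (SD, n = 5), and the sialomucin Cd34 at 766 ± 73.5 against 691 ± 77.3. PBS replicate 2 stood apart in markers of other cells. Its 11 macrophage markers summed to 2626 CPM, against 378 to 1040 in the other PBS libraries, and its 7 mature neutrophil markers to 1478 CPM, against 33.4 to 240.2.

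Few genes passed the test across all genes at 72 h. With edgeR's quasi-likelihood test and Benjamini-Hochberg adjustment, 3 genes rose and 0 fell at an adjusted p below 0.05, which is 0.0201% of the genes tested. The same test between the 72 h and 24 h libraries called 4646 genes, 31.1% of those tested, of which 2192 were higher and 2454 lower at 72 h. That split turned to 2783 higher and 1919 lower under upper-quartile scaling. At an unadjusted p below 0.05, 776 genes were higher (5.2%) and 926 lower (6.21%) at 72 h than with PBS. All 3 libraries at 72 h lay above all 5 PBS libraries for 740 genes (4.96%) and below them for 1046 (7.01%). Such genes are called apart here, with no test, and these shares are the background for every list count of genes apart below. The median log2 change over all genes was -0.03. DESeq2 called 178 genes, a fit of the compared groups alone 99 and limma voom with sample weights 2170. All 3 called 48 genes, 23 higher and 25 lower, the 3 main calls among them.

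Among the genes that rose were Lat2 and Ms4a6b, which encode membrane proteins of leukocytes. Lat2 encodes LAB (NTAL), a transmembrane adaptor that relays signals from Fc and Kit receptors. Ms4a6b belongs to the Ms4a family of membrane proteins with 4 spans. In GRCm38 coordinates of GENCODE M21 the protein-coding Lat2 gene spans chr5:134600022-134615025 on the minus strand and Ms4a6b chr19:11516512-11531256 on the plus strand.

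Lat2 stood at 61.6, 75.0, 52.9, 66.4 and 66.0 CPM with PBS and at 142, 128 and 100 CPM at 72 h. No 72 h library overlapped the PBS range, and the gene rose 1.92-fold (log2 change 0.94 ± 0.13, adjusted p = 0.0214, edgeR). At 24 h its 3 libraries held 50.9, 51.0 and 49.0 CPM, all below the PBS libraries. The log2 difference of 72 h from 24 h was 1.29 (adjusted p = 0.00015). Lat2 overlaps Rfc2, a replication factor gene on the other strand, and strandedness is not given in the sources used here. Rfc2 itself had 202 ± 19.1 CPM with PBS and 280 ± 47.5 at 72 h (log2 change 0.47 ± 0.16, adjusted p = 0.287), and its part in the Lat2 value was not tested.

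Ms4a6b stood at 35.4, 51.8, 40.0, 45.3 and 29.7 CPM with PBS and at 68.0, 85.2 and 104 CPM at 72 h. The groups did not overlap, and the gene rose 2.12-fold (log2 change 1.08 ± 0.17, adjusted p = 0.0424, edgeR). Its 24 h libraries, at 41.1, 45.3 and 47.2 CPM, lay inside the PBS range, and 72 h exceeded 24 h by 0.94 on the log2 scale (adjusted p = 0.00221). Both calls were close to the threshold. The all-library count of called genes fell to 0 without PBS replicate 1, 3, 4 or 5 or LPS 72 h replicate 2, and to 1, Lat2, without LPS 72 h replicate 3. Without LPS 72 h replicate 1 Lat2 was no longer called (adjusted p = 0.104), while Ms4a6b and the BH3-only gene Pmaip1 (NOXA) were. Without the 24 h replicate 1, Ms4a6b was no longer called (adjusted p = 0.0687).

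**Figure D1:**
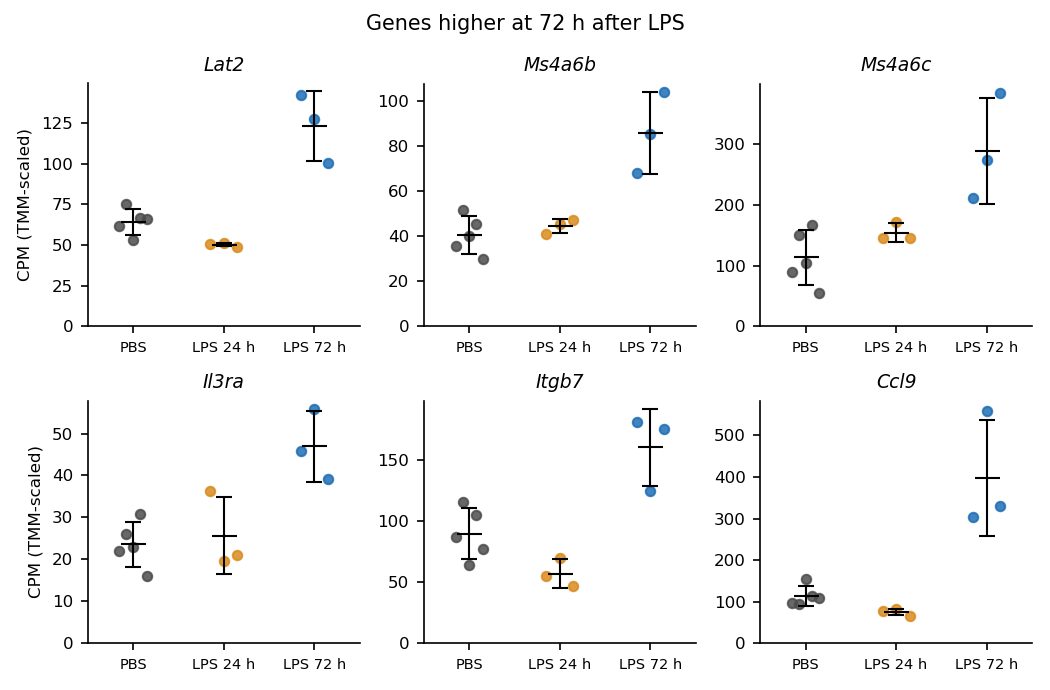
CPM (y axis, from 0, scaled between libraries) of 6 genes in 5 PBS, 3 LPS 24 h and 3 LPS 72 h libraries (points), with mean and SD (black). In each panel the 3 libraries at 72 h lie above all 5 PBS libraries, for Lat2 at 100 to 142 against 52.9 to 75.0 CPM.

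The Ms4a genes lie in 1 cluster on chromosome 19, and 10 of the 18 listed members passed the filter. Ms4a6c, next to Ms4a6b, stood at 89.95, 150, 105, 167 and 55.2 CPM with PBS and at 211, 273 and 383 CPM at 72 h (log2 change 1.35 ± 0.28, adjusted p = 0.148). PBS replicate 5, the lowest, was also lowest in the summed 18 genes of primary neutrophil granules, at 5771 CPM against 9516 to 22310 in the other PBS libraries and 12030 to 20630 at 72 h, and the part of myeloid content in the Ms4a6 values was not tested. Ms4a4c had 9.73 ± 4.55 CPM with PBS and 29.1 ± 11.5 at 72 h (1.58 ± 0.53, adjusted p = 0.286). Both had libraries apart, as 3 of the 10 members did upward and 4 downward.

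The 4 members below the PBS range include markers of mature cells. Ms4a7, expressed by macrophages, had 2.32 to 23.1 CPM with PBS and 0.0731 to 0.0916 CPM at 72 h. Ms4a14 (listed at 0 at 24 h too) had 61 counts over the PBS libraries and 0 over those at 72 h, which makes it at least 9.71-fold lower against a floor of 3 counts over the group, counting error only. The B cell marker Ms4a1 (CD20) had 3.95 ± 2.03 and 0.482 ± 0.505 CPM. The mast cell and basophil gene Ms4a2, a chain of the IgE receptor, had 11.3 ± 9.04 and 3.36 ± 0.503 CPM. None of these 4 passed the adjusted test, with adjusted p from 0.129 to 0.442.

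Reads of the Ms4a6 genes can be partly shared. Of the 50-base words in the longest transcript, 3.28% for Ms4a6b and 11.3% for Ms4a6c also occurred in transcripts of other genes, each other's included, against 0% for Lat2. The antisense transcript BE692007 overlaps Ms4a6c and had 40.2 ± 17.1 CPM with PBS and 110 ± 37.6 at 72 h (log2 change 1.45 ± 0.31, adjusted p = 0.148). Without strand information the reads of that pair cannot be told apart. The 250 bases before the RefSeq start of both Ms4a6 genes are shown because both genes lay above the PBS range and have long identical runs there (GRCm38.p6, plus strand, chr19:11518309-11518558 for Ms4a6b and chr19:11469118-11469367 for Ms4a6c). Capitals mark runs of 12 or more bases that occur in both.
Ms4a6b: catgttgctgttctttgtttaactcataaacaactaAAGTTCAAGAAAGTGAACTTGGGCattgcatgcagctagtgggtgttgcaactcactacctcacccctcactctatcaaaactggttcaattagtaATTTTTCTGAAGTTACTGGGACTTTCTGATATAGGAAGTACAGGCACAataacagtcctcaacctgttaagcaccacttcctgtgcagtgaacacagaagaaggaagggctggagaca
Ms4a6c: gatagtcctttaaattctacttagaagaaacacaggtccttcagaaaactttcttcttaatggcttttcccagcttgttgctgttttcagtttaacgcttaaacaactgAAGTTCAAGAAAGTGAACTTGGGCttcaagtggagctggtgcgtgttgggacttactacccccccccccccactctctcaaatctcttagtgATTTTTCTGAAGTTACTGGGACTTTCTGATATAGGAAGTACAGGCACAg

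The promoters share 2 such runs, the longer of 48 bases, and the runs cover 72 of the 250 bases (28.8%). The GENCODE model of Ms4a6b starts upstream of the RefSeq start, so the printed stretch lies inside that gene model. The promoter sequence of Lat2 is not shown here.

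Among other receptors and adaptors, several members had libraries above the whole PBS range without passing the adjusted test. Of 31 hematopoietic cytokine receptors tested, 0 were called, 4 stood apart upward and 1 downward, with a median log2 change of 0.16 against -0.03 for all genes. The shares of all genes apart are 4.96% upward and 7.01% downward, and without 72 h library 3 the median was 0.06. Il3ra, the ligand-binding chain of the interleukin-3 receptor, had 22.1, 26.0, 22.9, 30.9 and 16 CPM with PBS and 45.7, 55.9 and 39.2 CPM at 72 h (log2 change 0.99 ± 0.22, adjusted p = 0.151). Every 72 h library lay above every PBS library. Ifngr2, a chain of the interferon gamma receptor, had 32.4 ± 7.20 CPM with PBS and 48.6 ± 7.67 at 72 h (adjusted p = 0.256).

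Il10ra, the receptor that the antibody of this series blocks, had 37.6, 78.1, 49.97, 53.2 and 59.4 CPM with PBS and 84.5, 78.3 and 87.0 at 72 h. The groups did not overlap, but the second 72 h library was level with PBS replicate 2 (log2 change 0.58 ± 0.31, adjusted p = 0.488). At 24 h the gene stood at 11.2 to 22.2 CPM, and 72 h exceeded 24 h by 2.39 on the log2 scale (adjusted p = 0.000429). Epor, the erythropoietin receptor, was the member apart downward, at 7.28 ± 2.08 CPM with PBS and 1.73 ± 1.57 at 72 h (adjusted p = 0.488).

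Of 26 immunoreceptor adaptors and proximal kinases, Lat2 was the 1 called gene, and 5 stood apart upward and 1 downward (4.96% and 7.01% of all genes). Cblb, a ubiquitin ligase that restrains receptor signalling, had 38.0 ± 1.46 CPM with PBS and 49.3 ± 4.26 at 72 h (adjusted p = 0.465). The kinase Syk, downstream of Fc receptors and integrins, was the member apart downward, at 293 ± 16.7 and 240 ± 18.3 CPM (adjusted p = 0.469).

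Niche retention and homing receptors were mixed. Of 26 tested, 1 was called, which is not reported here. In all, 15 had a negative change, 4 stood apart upward and 3 downward, and the median was -0.07. The gut-homing integrin chain Itgb7 had 87.0, 116, 64.3, 105 and 77.3 CPM with PBS and 181, 124 and 175 at 72 h (log2 change 0.83 ± 0.20, adjusted p = 0.152). The monocyte integrin Itgam (CD11b) had 65.2 ± 12.9 and 101 ± 22.2 CPM (adjusted p = 0.379). The monocyte chemokine receptor Ccr2 had 82.7 ± 28.2 and 223 ± 109 CPM (adjusted p = 0.379). These genes were all members apart upward, and the 3 apart downward are not detailed here. At an unadjusted p below 0.05 (edgeR), 6 of the 26 were higher and 3 lower.

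Of 23 chemokines and inflammatory cytokines tested, 0 were called, 1 stood apart upward and 3 downward, 2 were higher and 4 lower at an unadjusted p below 0.05, and the median log2 change was -0.05. Ccl9, a chemokine made by myeloid cells, was the member apart upward, with a log2 change of 1.80 ± 0.43 (adjusted p = 0.152). It stood at 97.7, 95.2, 154, 115 and 109 CPM with PBS and at 304, 559 and 330 CPM at 72 h. All 3 libraries at 72 h lay above the PBS range. Slc4a8 was apart upward, a sodium bicarbonate transporter (2.83-fold, adjusted p = 0.0548), as were Ffar2, a receptor for short-chain fatty acids (1.37 ± 0.28, adjusted p = 0.143), Tnfaip8l2, a damper of innate signalling (0.92 ± 0.21, adjusted p = 0.151), and heparanase, Hpse (0.97 ± 0.23, adjusted p = 0.152). Snx20, a sorting nexin that binds PSGL-1, had a log2 change of 0.81 ± 0.16 (adjusted p = 0.142) and Rogdi one of 0.82 ± 0.15 (adjusted p = 0.129).

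Sensors of microbial products were mixed. Of 30 genes of LPS sensing and TLR signalling, 0 were called, and the median log2 change was 0.01. Apart upward stood 3 and downward 1, against 4.96% and 7.01% of all genes. Unc93b1, which carries nucleic acid-sensing TLRs to endosomes, had 204 ± 48.4 CPM with PBS and 317 ± 50.3 at 72 h (adjusted p = 0.18). Tlr1, the partner of TLR2, had 5.18 ± 1.93 and 14.1 ± 6.21 CPM (adjusted p = 0.18). Traf3, which restrains noncanonical NF-kB, was the member apart downward, at 59.8 ± 2.69 and 44.2 ± 8.88 CPM (adjusted p = 0.317). Tnip1, an NF-kB inhibitor, had 60.5 ± 5.00 and 74.0 ± 1.93 CPM (adjusted p = 0.322).

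Of 14 tested MHC class II genes, which present antigen to T cells, 10 had a positive and 4 a negative change. Of the 14, 0 were called, 3 stood apart upward and 0 downward (4.96% and 7.01% of all genes), with a median of 0.32. At an unadjusted p below 0.05 (edgeR), 5 were higher and 0 lower, against 5.2% and 6.21% of all genes. The median was 0.06 without 72 h library 3, 0.52 without library 2 and 0.12 with voom. H2-Oa, which tunes loading, had 19.4, 19.4, 16.1, 17.8 and 20.8 CPM with PBS and 39.9, 27.7 and 25.0 at 72 h (log2 change 0.72 ± 0.20, adjusted p = 0.199). H2-DMa, a chain of the loading catalyst, had 149 ± 16.4 and 209 ± 40.5 CPM (0.49 ± 0.16, adjusted p = 0.297), and H2-DMb2 had 10.04 ± 1.10 and 16.4 ± 2.74 CPM (adjusted p = 0.379). The summed level of the class did not separate the groups, at 1209 to 1975 CPM at 72 h and 999.5 to 1944 CPM with PBS. At 24 h it was 675.6 to 746.9 CPM. The median transcript length of the 14 genes was 1576 bases, and the part of length in their values was not tested.

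The greatest differences by size were of genes that define resident bone marrow macrophages, the cells that clear dying cells and recycle iron. Of 30 listed, all tested, 0 were called in the fit of all libraries, but 22 stood apart downward and 0 upward, and the median log2 change was -4.42. Slc40a1 (ferroportin), the iron exporter, had 53.8, 536, 101, 81.0 and 148 CPM with PBS and 4.398, 6.25 and 6.51 at 72 h (log2 change -5.00 ± 0.99, adjusted p = 0.132). Every 72 h library lay below every PBS library, and PBS replicate 2 was far above the other 4.

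Vcam1, the adhesion molecule of the macrophage niche, had 64.6, 681, 158, 122 and 288 CPM with PBS and 7.15, 7.35 and 7.68 at 72 h (-5.15 ± 1.13, adjusted p = 0.151). Hmox1, heme oxygenase, had 59.7 to 521 CPM with PBS and 3.15 to 5.22 at 72 h (adjusted p = 0.146). The apoptotic cell receptors Axl and Mertk had 156 ± 143 and 24.8 ± 25.0 CPM with PBS and 7.79 ± 0.977 and 0.188 ± 0.0853 at 72 h. The sialoadhesin gene Siglec1 had 10.7 to 135 CPM with PBS and 0 to 0.169 at 72 h. Complement genes C1qa and C1qb had 94.5 ± 98.6 and 81.6 ± 82.4 CPM with PBS and 1.86 ± 1.35 and 1.38 ± 1.03 at 72 h, the mannose receptor Mrc1 102 ± 96.8 and 4.00 ± 1.08, and Cd5l 79.6 ± 80.3 and 1.52 ± 0.892.

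In other tests more was called. DESeq2 called 20 members lower, limma voom 15 and the fit of the compared groups 13. Without PBS replicate 2 the median was -3.74 and 22 members were at an unadjusted p below 0.05, against 24 with it. At 24 h the same genes were already low, with a median of -3.76 against the same PBS libraries, with 24 h means from 0.214 CPM (Mertk) to 20.7 CPM (Slc40a1) among those named here. The 30 genes summed to 1200 to 1341 CPM at 72 h and 1469 to 7918 with PBS, while the 11 defining markers summed to 241.3 to 408.4 CPM at 72 h and 378.3 to 2626 with PBS, which overlap. Of those 11 none was at 0 in all libraries at 72 h. Fewer macrophages among the sorted cells and less RNA per macrophage cannot be told apart in these bulk libraries. Csf1r, the macrophage growth factor receptor that myeloid progenitors also express, was the 1 member with a positive change, at 177.5, 178.8 and 327.9 CPM at 72 h against 101.1 to 218.3 with PBS.

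**Figure D2:**
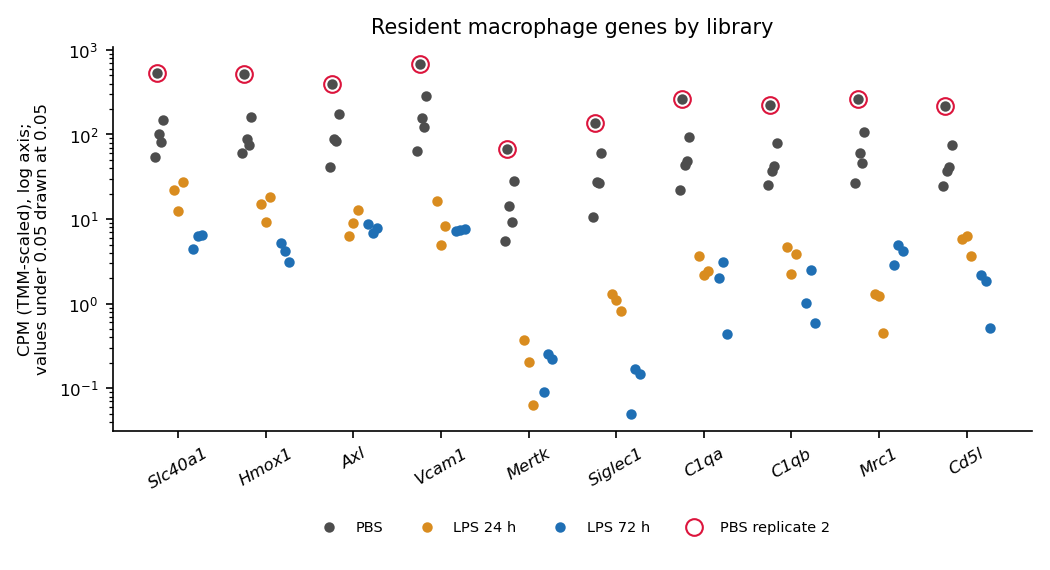
CPM on a log axis of 10 resident macrophage genes in 5 PBS, 3 LPS 24 h and 3 LPS 72 h libraries (points), with PBS replicate 2 ringed. For each gene, all 3 libraries at 72 h lie below all 5 PBS libraries, for Vcam1 at 7.15 to 7.68 against 64.6 to 681 CPM.

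Erythroid genes were below PBS as a list. Of 28 tested, all 28 had a negative change, 12 stood apart downward and 0 were called, with a median of -2.24 against 54% of all genes below 0. The summed level of the list was 510.2, 220.3 and 92.81 CPM in the 3 libraries at 72 h and 617.2 to 1109 CPM with PBS. Beta-globin Hbb-bs had 45.8, 38.3, 38.3, 20.2 and 77.8 CPM with PBS and 1.37, 0.507 and 0 at 72 h. The heme enzyme Alas2 had 5.11 ± 2.26 and 0.278 ± 0.187 CPM (log2 change -4.17 ± 0.93, adjusted p = 0.151). The transferrin receptor Tfrc, which feeds erythroid cells with iron, had 152 ± 39.2 CPM with PBS, 428 ± 210 at 24 h and 94.5 ± 7.55 at 72 h, and 72 h was below 24 h (log2 difference -2.18, adjusted p = 0.00342). Library 3 at 72 h was lowest for this list and library 1 highest. Without library 1 the median was -3.90 and 12 members had an unadjusted p below 0.05, against 6 with it. The fit of the compared groups alone put 22 members below that p and called 5. Globin genes share most of their 50-base words, 65.8% for Hbb-bs, so the split of reads within a pair is uncertain.

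Megakaryocyte and platelet genes were also below, 21 of 23 with a negative change, a median of -1.15, 6 apart downward and 1 upward. An unadjusted p below 0.05 was found for 6 lower members, for 1 without 72 h library 2 and for 0 without library 3, and the median was -0.20 over the 7 more abundant members. Vwf had 28.9 ± 10.3 and 13.03 ± 5.85 CPM, and the integrin Itga2b (CD41) 87.5 ± 6.21 and 49.0 ± 26.2. The summed level of 5 megakaryocyte markers was 123.0, 77.0 and 40.08 CPM at 72 h and 123.2 to 185.9 with PBS, in the same order of libraries as the erythroid sum.

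Genes of B and plasma cells and of mast cells and basophils were mostly lower at 72 h. Of 17 B and plasma cell genes tested, 13 had a negative change and 0 were called. In that list 0 stood apart upward and 5 downward, with a median log2 change of -0.94. Of 13 mast cell and basophil genes tested, 11 had a negative change and 0 were called. There 0 stood apart upward and 3 downward, with a median of -0.87. The shares of all genes apart are 4.96% upward and 7.01% downward. Jchain, the linker of antibody polymers, had 598, 1179, 304, 250 and 746 CPM with PBS and 236, 108 and 95.8 at 72 h (-2.07 ± 0.79, adjusted p = 0.354). At 24 h it stood lower still, at 19 to 32.98 CPM. Of 7 defining B and plasma cell markers, the 6 found in the table summed to 106.3 to 304.9 CPM at 72 h and 326.2 to 1272 with PBS. The summed level of the whole list overlapped, at 964.4 to 1325 CPM at 72 h and 1114 to 2442 with PBS. The basophil protease Prss34 had 91.2 ± 51.1 and 15.1 ± 7.94 CPM (adjusted p = 0.354), and Fcer1a, a chain of the IgE receptor, 6.44 ± 4.71 and 0.97 ± 0.529 CPM (adjusted p = 0.383).

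Genes of stem cell self-renewal were nearer to baseline. Of 30 tested, 0 were called, with 24 negative changes, a median of -0.36, 1 apart upward and 2 downward, shares below those of all genes (4.96% and 7.01%). At an unadjusted p below 0.05 (edgeR), 1 was higher and 4 were lower. Those are 3.33% and 13.3%, against 5.2% and 6.21% of all genes. Bmi1, a Polycomb protein that sustains self-renewal, had 41.4, 48.6, 38.2, 47.2 and 46.4 CPM with PBS and 33.3, 32.03 and 35.2 at 72 h (log2 change -0.40 ± 0.12, adjusted p = 0.242). The homeobox gene Hoxb4 was the member apart upward, at 4.94 ± 0.660 and 6.78 ± 0.583 CPM (adjusted p = 0.379). At 24 h the median of the list was -1.22 against the same PBS libraries. Of 18 HSPC surface markers tested, 9 had a positive and 9 a negative change, 2 stood apart upward and 1 downward. In this list 1 gene was called, and it is not reported here. The SLAM receptor Cd48 was apart upward (131 ± 19.1 CPM with PBS and 178 ± 7.46 at 72 h, adjusted p = 0.532), and Itga2b was apart downward. The endothelial and stem cell adhesion molecule Pecam1 had 143 ± 9.56 CPM with PBS, 81.2 ± 15.8 at 24 h and 198 ± 11.4 at 72 h (adjusted p = 0.249 against PBS). It is also 1 of 5 stroma markers, whose sum was 187.8 to 207.5 CPM at 72 h and 141.7 to 164.9 with PBS. Pecam1 itself made up most of that sum, at 185.1 to 205.2 CPM at 72 h and 133.6 to 158.8 with PBS. Of 10 collagen and stromal genes tested, 9 had a negative change, and the 1 with a positive change was Pecam1. The part of stroma cells was not tested.

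**Figure D3:**
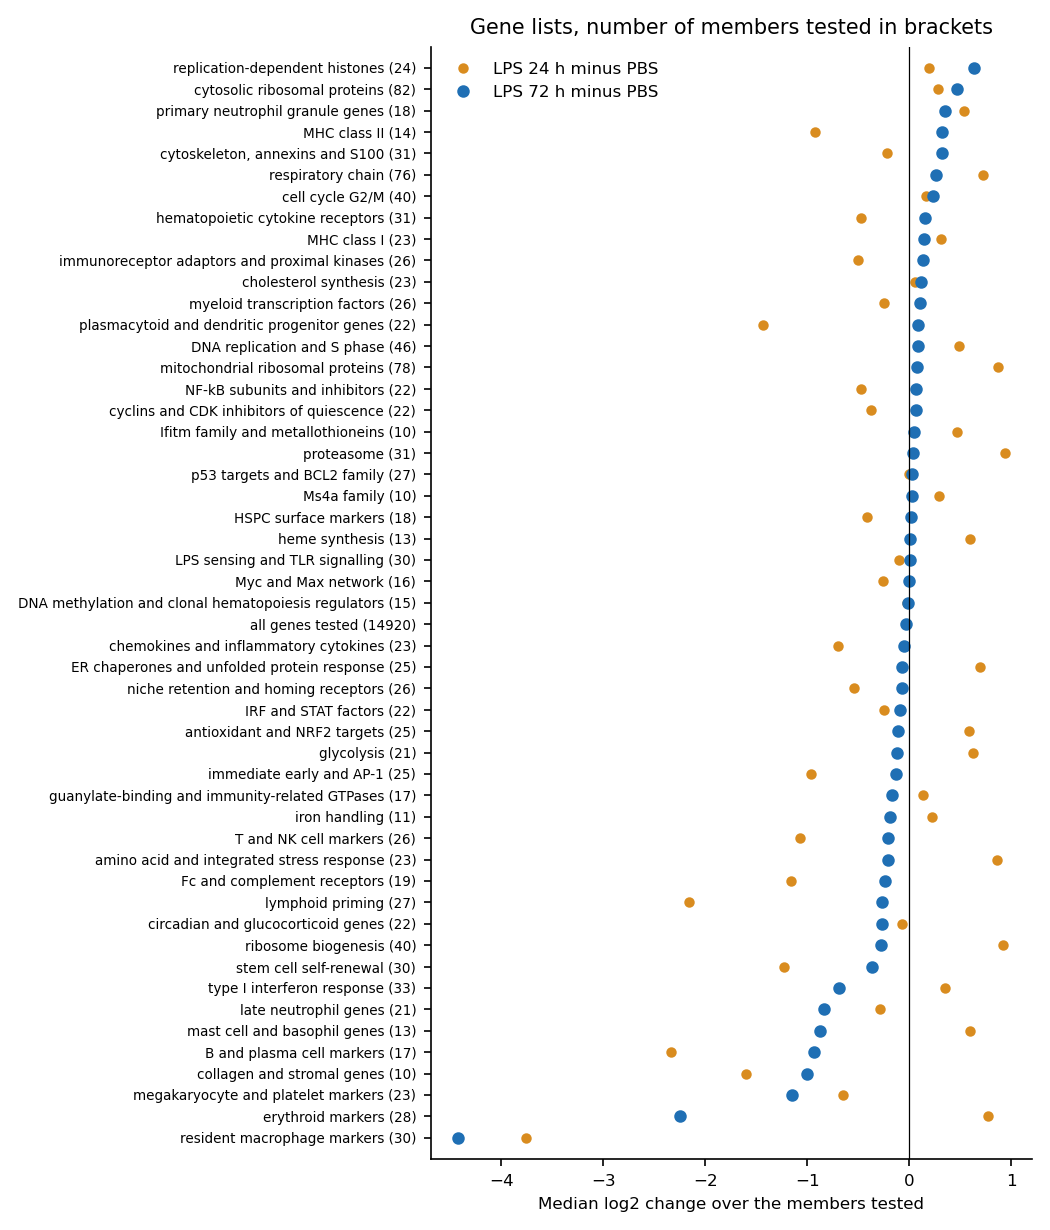
Median log2 change (x axis) over the tested members of each gene list for LPS 72 h minus PBS (blue) and LPS 24 h minus PBS (orange), which share the 5 PBS libraries. At 72 h most lists lie near 0, with resident macrophage markers at -4.42 and erythroid markers at -2.24 as the lowest.

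By median, interferon-stimulated genes were below PBS at 72 h, but their summed level overlapped it (1229 to 1471 CPM against 1402 to 1927). Of 33 tested, 31 had a negative change, 14 stood apart downward and 0 upward, 0 were called and 0 reached an unadjusted p below 0.05, with a median of -0.68. In the fit of the compared groups 22 had an unadjusted p below 0.05 and 2 were called, DESeq2 called 0 and limma voom 1. Ifit1, an inhibitor of viral translation, had 13.9, 11.6, 7.75, 10.2 and 9.54 CPM with PBS and 5.04, 2.37 and 2.56 at 72 h (-1.68 ± 1.02, adjusted p = 0.547). Rtp4 had 29.0, 38.7, 19.1, 21.5 and 26.0 CPM with PBS and 15.8, 11.1 and 8.27 at 72 h (-1.20 ± 0.66, adjusted p = 0.502). In both genes every 72 h library lay below every PBS library.

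Ifit3 had 9.13 ± 6.33 CPM with PBS, with 20.2 in PBS replicate 2, and 1.51 ± 0.439 at 72 h (adjusted p = 0.467). Eif2ak2 (PKR), the double-stranded RNA kinase, had 81.4 ± 2.54 and 56.4 ± 10.04 CPM (adjusted p = 0.454). The secreted Lgals3bp had 268 ± 44.8 and 157 ± 15.7 CPM (adjusted p = 0.499). At 24 h the median of the list was 0.35 against the same PBS libraries.

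The interferon-stimulated response element, a site of IRF and STAT factors, was searched as GAAA, any 2 bases and GAAA again, on both strands, in the 250 bases before the RefSeq start. It occurred in 11 of the 25 list members with a promoter entry (44.0%), in 3 of the 10 that stood apart downward (30%) and in 3.39% of the 10853 tested genes with an entry. A match is a description of letters. For these 3 genes, each with 2 matches, 1 window of 50 bases around a match is printed (GRCm38.p6, plus strand), with matches in capitals (TTTC, 2 bases and TTTC where the match is on the other strand). They are shown as the members apart downward that hold the motif, and its part in the levels was not tested.
Ifit1 chr19:34640784-34640833: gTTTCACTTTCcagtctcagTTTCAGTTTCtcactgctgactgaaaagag
Ifit3 chr19:34583387-34583436: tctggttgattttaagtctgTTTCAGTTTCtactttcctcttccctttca
Ifit3b chr19:34607783-34607832: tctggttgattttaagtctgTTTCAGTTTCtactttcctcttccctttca

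The windows of Ifit3 and its copy Ifit3b are identical, and 51.2% of the 50-base words of Ifit3 occur in other transcripts, so the split of reads between these 2 genes is uncertain.

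By median, ribosome biogenesis genes were above baseline at 24 h and below it at 72 h. Their summed level at 72 h overlapped PBS, at 6420 to 7000 CPM against 6629 to 9153. Of 40 genes tested, 33 had a negative change at 72 h, 14 stood apart downward and 0 upward, and 0 were called, with a median of -0.28. An unadjusted p below 0.05 was found for 15, for 4 without 72 h library 1, for 7 without library 2 and for 5 with the replicate block. The voom test called 13 lower. Polr1b, a subunit of RNA polymerase I, had 103, 69.1, 82.1, 84.1 and 87.0 CPM with PBS, 151, 136 and 176 at 24 h and 54.5, 60.4 and 65.0 at 72 h. The 3 groups did not overlap. The log2 change of 72 h from PBS was -0.51 ± 0.15 (adjusted p = 0.23) and from 24 h -1.36 (adjusted p = 0.000152).

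The same order held for the helicase Ddx21, the nucleolar chaperone Nolc1 and the snoRNP protein Nop58, with log2 changes from PBS of -0.49 ± 0.16, -0.52 ± 0.18 and -0.41 ± 0.15 (adjusted p = 0.286, 0.312 and 0.328) and from 24 h of -1.38, -1.71 and -1.18. The list median at 24 h was 0.93 above the same PBS libraries.

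Amino acid supply followed that order by median, and its summed level at 72 h overlapped PBS (1265 to 1480 CPM against 1436 to 1936). Of 23 genes of amino acid supply and the integrated stress response, 5 stood apart downward and 0 upward at 72 h, with a median of -0.21 (0.86 at 24 h). Slc7a5, which imports large neutral amino acids, had 156, 94.7, 108, 138 and 112 CPM with PBS, 292, 257 and 294 at 24 h and 76.5, 77.3 and 91.5 at 72 h. The 3 groups did not overlap (72 h minus PBS -0.58 ± 0.18, adjusted p = 0.267). Its partner Slc3a2 had 138 ± 21.7, 223 ± 49.98 and 98.8 ± 6.24 CPM. Aldh18a1, an enzyme of proline synthesis, had 105 ± 12.1 CPM with PBS, 169 ± 15.7 at 24 h and 69.0 ± 1.40 at 72 h (72 h minus PBS -0.61 ± 0.13, adjusted p = 0.15). The fit of the compared groups and DESeq2 each called 1 gene of this list lower, and voom 3.

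**Figure D4:**
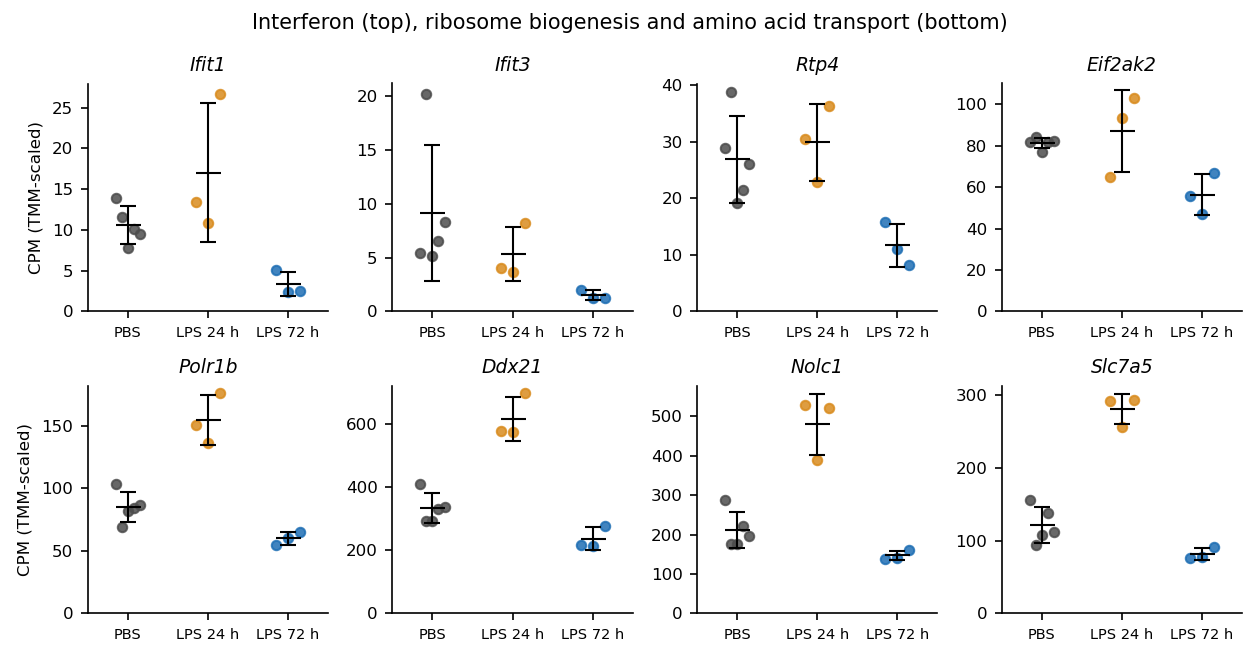
CPM (y axis, from 0) of 4 interferon-stimulated genes (top) and of 3 ribosome biogenesis genes and Slc7a5 (bottom) in 5 PBS, 3 LPS 24 h and 3 LPS 72 h libraries (points), with mean and SD (black). The 72 h libraries lie below all PBS libraries in each panel, and in the bottom row the 24 h libraries lie above them, for Slc7a5 at 257 to 294 CPM.

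Cytosolic ribosomal protein genes were above PBS in 2 of the 3 libraries. Of 82 tested, 81 had a positive change, 50 reached an unadjusted p below 0.05, 0 were called and 0 stood apart, with a median of 0.47. They took 16.4% and 15.2% of the counts in 72 h libraries 1 and 2, 10.3% in library 3 and 9.64% to 11.9% with PBS. Rps21 had 458, 579, 381, 469 and 409 CPM with PBS and 1055, 1004 and 463 at 72 h, so library 3 lay inside the PBS range. Fau and Rps15 had log2 changes of 0.75 ± 0.22 and 0.82 ± 0.26 (adjusted p = 0.231 and 0.27). Without library 1 at 72 h 5 members had an unadjusted p below 0.05, 10 without library 2, 75 without library 3, 24 without PBS replicate 3, 29 without PBS replicate 5, 33 with the replicate block and 75 without 24 h replicate 1. The voom test called 75.

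Transcript length moved with these values. Over the tested genes ranked by transcript length, the median log2 change was 0.09 in the shortest of 5 equal classes (up to 1702 bases) and -0.11 in the longest (from 4995 bases), and 275 against 49 genes were higher at an unadjusted p below 0.05. Genes with transcripts under 1000 bases, leaving out ribosomal proteins, took 4.67%, 4.90% and 3.73% of the CPM of the 72 h libraries and 3.46% to 4.58% with PBS. LPS 24 h replicate 1 was high for both, with 13.7% and 5.89%. The part of length or of these libraries in the ribosomal protein values was not tested. Also, 32.5% of the 50-base words of a ribosomal protein transcript (median of 82 genes) occur in other transcripts.

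**Figure D5:**
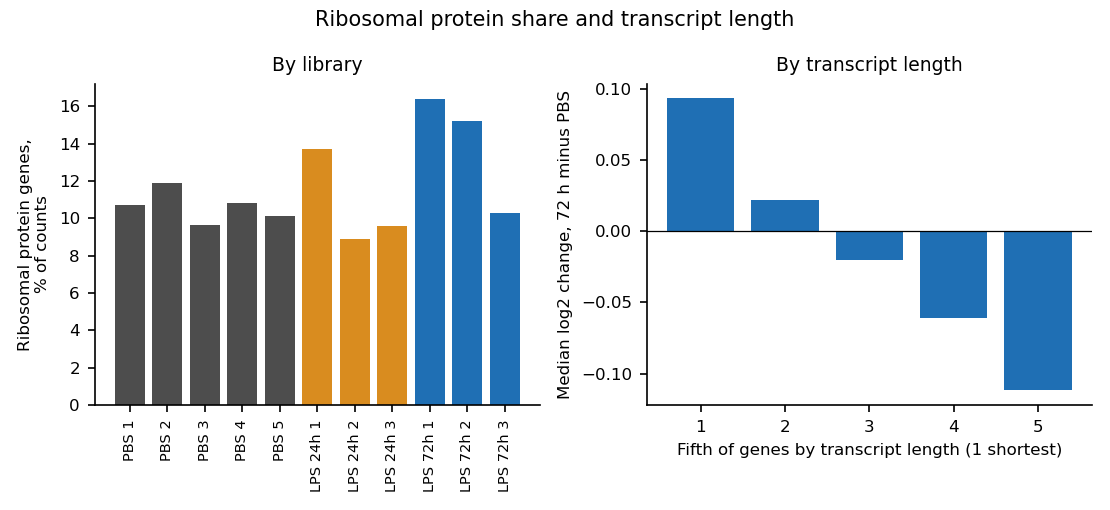
Left, share of counts in 82 ribosomal protein genes (y axis, %) in each PBS, LPS 24 h and LPS 72 h library. Right, median log2 change of LPS 72 h minus PBS in 5 equal classes of tested genes by transcript length. The high bars at left are 72 h libraries 1 and 2 (16.4% and 15.2%) and 24 h library 1 (13.7%), and the medians at right go from 0.09 to -0.11.

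Of 31 genes for cytoskeleton, annexins and S100 proteins, which shape and move cells, 22 had a positive and 9 a negative change. None was called (0 of 31), 6 stood apart upward and 1 downward, with a median of 0.32, or 0.21 without PBS replicate 5. The list summed to 12600 to 12640 CPM at 72 h, inside the PBS range of 8976 to 12930. Its median transcript length was 1731 bases, and the part of length in its values was not tested. Thymosin Tmsb10, an actin monomer binder, had 317, 595, 253, 347 and 356 CPM with PBS and 876, 817 and 570 at 72 h, and the groups met at PBS replicate 2 and 72 h library 3 (1.01 ± 0.27, adjusted p = 0.192). Lgals1 (galectin-1) had 275 ± 97.7 and 588 ± 69.8 CPM (adjusted p = 0.368), S100a10 99.97 ± 16.03 and 171 ± 35.7 (adjusted p = 0.28) and Anxa2 118 ± 32.8 and 214 ± 23.7 (adjusted p = 0.389). Lamin A/C, Lmna, was the member apart downward, at 7.97 ± 1.48 and 2.09 ± 2.12 CPM (adjusted p = 0.389).

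Cell cycle genes of G2 and M phase lay slightly above PBS, 39 of 40 with a positive change against 45.9% of all genes, a median of 0.24, 5 apart upward and 0 called. Without 72 h library 3 the median was 0.12. The summed level of the list overlapped PBS, at 7039, 7810 and 9523 CPM in the 72 h libraries against 5690 to 7916. The centromere histone Cenpa had 111 ± 25.1 CPM with PBS and 163 ± 2.29 at 72 h (0.56 ± 0.18, adjusted p = 0.28). Birc5 (survivin) had 99.0 ± 13.3 and 157 ± 29.3 (adjusted p = 0.336), the kinetochore gene Ndc80 47.8 ± 2.51 and 61.8 ± 9.01 (adjusted p = 0.38) and Cdca3 89.5 ± 14.1 and 124 ± 7.37 CPM (adjusted p = 0.398). Replication-dependent histones, whose mature mRNAs lack a poly(A) tail, were low in all libraries, with 9 of 24 apart upward and a median of 0.64. H2bc3 had 1.47 ± 0.357 and 4.16 ± 1.44 CPM and H1f5 1.48 ± 0.316 and 2.90 ± 0.735.

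Pmaip1 had 5.78, 5.75, 3.15, 3.07 and 4.63 CPM with PBS, 14.1, 12.9 and 14.1 at 24 h and 6.41, 16.9 and 17.5 at 72 h (1.61 ± 0.30 from PBS, adjusted p = 0.129). Library 1 at 72 h was just above the PBS range and the other two were near the 24 h level. The p53 target Aen had 48.0 ± 6.49 CPM with PBS and 30.3 ± 3.01 at 72 h (adjusted p = 0.231). Nfil3, a transcription factor of innate lymphoid and myeloid cells, had 17.6 ± 1.41 and 27.4 ± 2.61 (adjusted p = 0.28). Marchf8, a ubiquitin ligase of membrane receptors, had 31.4, 26.6, 32.1, 28.6 and 25.5 CPM with PBS and 14.8, 14.8 and 15.4 at 72 h, with no overlap (-0.94 ± 0.20, adjusted p = 0.148). The clock genes Per2 and Nr1d1 had 16.4 ± 2.76 and 8.13 ± 1.06 CPM with PBS and 10.1 ± 1.53 and 5.17 ± 1.26 at 72 h (adjusted p = 0.38 and 0.282). Harvest time of day is not given in the sources used here.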

How the data were processed

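RNA of sorted HSPC was sequenced as polyadenylated RNA. The authors deposited raw counts per gene for 17 libraries. The build GRCm38 and the tools HISAT2 2.2.0, Subread, featureCounts 2.1.1, R 4.3.2 and DESeq2 are named, without role or order, per the submitters' processing notes. Strandedness, annotation and filters are not given in the sources used here.

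Groups came from titles. Genes were kept with filterByExpr (minimum count 10, minimum total 15), 14920 of 35321, holding 99.9% of counts, and 13321 genes had 0 in every library. One edgeR 4.0.16 quasi-likelihood fit (R 4.3.3, TMM scaling) of all 17 libraries in 5 groups gave both comparisons, adjusted by Benjamini-Hochberg over all genes, with calls at 0.05. SE is the change divided by the root of F. CPM uses TMM-scaled totals. The scripts were tested on simulated data of 14889 genes, with 200 changed genes all drawn from those above the median level. Of 50 per size, 15 changed 1.5-fold, 40 changed 2-fold, 48 changed 4-fold and 50 changed 8-fold were called. Of 14689 unchanged genes 7 were called, and recovery of changed genes below the median level was not tested.

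Members and gene lists were chosen with earlier results of these data known. Genes were named by rule: called genes; the 12 per direction of smallest p among genes apart and at or above the median level; up to 8 per direction called by DESeq2 1.42.0, limma 3.58.1 voom with sample weights and the compared groups alone; in each list the 3 members of smallest p and the most abundant; and all HSPC surface, cytokine receptor, Ms4a and cell type markers. Some genes that the rule names are not reported here. Of 89 genes followed through all alternatives 13 lie outside the rule and were chosen after their values were seen: Syk, Cblb, Hpse, Ccr2, Tfrc, Ifit1, Rtp4, H2-DMb2, Lgals1, Anxa2, Lmna, Nop58 and Cdca3. Alternatives were 2 other scalings, 2 filters, 2 other tools, the compared groups alone, a replicate block and each library left out. Annotation is GENCODE M21, promoters are RefSeq GRCm38.p6, and 98.1% of tested symbols matched GENCODE.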

Additional observations from a re-analysis of the deposited data

Results flagged for a closer look

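In the 5 PBS libraries, 9 values lay far from the other 4 by a test on gaps, and about 1 in 20 groups does so by chance. Replicate 2 was high for the macrophage genes Ms4a7 (23.1 CPM), Slc40a1 (536), Hmox1 (521), C1qb (225) and Cd5l (219), for the summed resident macrophage markers (7918 CPM) and for the interferon gene Ifit3 (20.2 CPM). Replicate 1 was high for Ms4a2 (27.0 CPM) and replicate 5 for Cd34 (825 CPM).

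Of the 89 genes named, 46 differed between 72 h and 24 h after LPS at an adjusted p below 0.05 (edgeR), 28 higher and 18 lower at 72 h. The log2 differences of 72 h from 24 h of the higher genes were Jchain 2.52, Ccl9 2.41, Il10ra 2.39, Itgam 1.89, Tlr1 1.84, Tnfaip8l2 1.63, H2-Oa 1.60, H2-DMa 1.51, H2bc3 1.51 and Itgb7 1.49. Differences of middle size were Unc93b1 1.31, Lat2 1.29, Pecam1 1.29, H2-DMb2 1.25, Tmsb10 1.23, Snx20 1.12, H1f5 1.09, Hpse 1.03, S100a10 0.95 and Ms4a6b 0.94. The smaller positive differences were Cd34 0.94, Ms4a6c 0.91, Nfil3 0.88, Il3ra 0.87, Cblb 0.80, Rogdi 0.64, Hoxb4 0.59 and Tnip1 0.49. Of the genes lower at 72 h than at 24 h, the log2 differences were Hbb-bs -4.24, Fcer1a -3.91, Ms4a2 -3.67, Epor -3.43, Alas2 -2.66, Tfrc -2.18, Slc7a5 -1.78, Nolc1 -1.71 and Aen -1.52. The remaining ones were Ddx21 -1.38, Polr1b -1.36, Aldh18a1 -1.29, Nop58 -1.18, Slc3a2 -1.18, Marchf8 -1.04, Nr1d1 -0.72, Traf3 -0.68 and Bmi1 -0.49.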

How the results depend on the processing

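The count of genes called between LPS 72 h and PBS was 3 under RLE and upper-quartile scaling and 4 without the filter or with the upper part of genes alone, and Lat2 and Ms4a6b were kept in each. It was 178 with DESeq2 (53 higher), 2170 with limma voom (1239 higher), 99 with the compared groups alone (41 higher), 0 with the replicate block over all 17 libraries and 101 with the block in the compared groups, a fit chosen after seeing the data, which kept 2 of the 3. Leaving out 1 library gave 0 to 3. Between 72 h and 24 h the count was 4646 and 2884 with the upper part of genes alone, where 7460 genes were tested. Leaving out 1 library gave 3199 to 4507. The replicate block gave 4356 over all libraries and 3404 in the compared groups. The sources used here do not say whether equal replicate numbers share a litter or day. Deviations of libraries with equal numbers correlated at 0.136, -0.0889 and 0.203 between PBS and 72 h. Unequal numbers were not compared, so these values cannot decide whether the libraries are paired. No gene named changed direction in any of 1573 recomputed values, and no median of the 12 lists followed did. Of those values 15, all of Lat2 and Ms4a6b, no longer passed the threshold and 150 newly passed it. Of the list medians 7 moved by more than the spread of the PBS libraries: erythroid (-2.87 with voom, -3.20 with the replicate block, -3.90 and -1.75 without 72 h replicate 1 and 3), megakaryocyte (-0.20 with the upper part of genes), ribosomal protein (0.66 without 72 h replicate 3) and histone (0.85 with voom). The upper part of genes gave no value for histones and for named genes below the median level. The cause of the differing counts between tools was not tested. At these depths a gene under 1 CPM rests on few counts.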
